A study of Mus musculus with 24 samples.

Results

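Cell cycle and DNA replication transcripts were measured in livers of male C57BL/6 mice. The set held 36 named genes, chosen by symbol from the cyclins, cyclin-dependent kinases (CDKs), CDK inhibitors, E2F factors, replication proteins and mitotic proteins, out of 24443 gene names in each of 4 tables. Every member had a row in every table, and no member was at 0 in all libraries of a table. Values fell into 5 groups of 4 samples. Fed WT and fasted WT mice carried floxed Bcl6 alleles without Cre. Fed Bcl6LKO mice carried the same alleles with Alb-Cre, which acts in hepatocytes, so they also differed from WT mice by the transgene. Fasted PparaKO mice were Ppara-/- in the whole body, and their labels give no floxed Bcl6. Fasted DKO mice were Ppara-/- with floxed Bcl6 and Alb-cre. Fed mice ate freely, and fasted mice went without food overnight. Whether the 4 samples of a group are separate animals is not given in the labels, so p-values cover the scatter of these 4 samples and that scatter may be technical. Samples of fasted Bcl6LKO mice (4 in the labels) are not analysed here.

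Dividing cells pass from growth into DNA synthesis when D-type cyclins with CDK4 or CDK6, and then E-type cyclins with CDK2, release E2F factors from RB proteins. E2F factors switch on the replication genes, among them the MCM helicase that opens the double helix, while A- and B-type cyclins with CDK1 drive mitosis. Most adult hepatocytes rest outside the cycle, many are polyploid, and they return to the cycle after loss of liver tissue. BCL6 is a transcriptional repressor, and PPARα is a nuclear receptor for fatty acids that is active in fasting liver.

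All levels are log2 values as deposited, on a scale that draws low values towards the gene mean, so a difference of 1 is a fold of 2 and differences of low genes are understated. Each table was scaled by itself, and the values are not per length, so levels are compared neither between tables nor between genes. No depth can be given, since the tables hold no counts. Once back-transformed, values summed over genes to between 12.6 and 15.1 mega units per library in all 4 tables, with the widest range in the Bcl6LKO table. Bcl6 itself ranged from 8.02 to 10.49 in fed WT and from 7.62 to 8.54 in fed Bcl6LKO livers, and the ranges overlapped (difference -1.53, SE 0.45, adjusted p = 0.0207). The floxed allele loses only part of the gene, so this level is a partial check. In the DKO table Bcl6 ranged from 6.95 to 9.39 in fasted WT and from 7.32 to 8.13 in DKO livers (difference -0.39, adjusted p = 0.54). Ppara was lower by 1.04 (SE 0.08, adjusted p = 3.82e-06) in PparaKO and by 1.77 (SE 0.19, adjusted p = 4.53e-05) in DKO livers, with no overlap in either table.

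Promoters are printed for 6 members, MCM subunits and mitotic genes that were each called in at least 1 comparison, to show where motifs of cell cycle promoters stand in them. They were chosen after their values were seen. Each is the run of 250 bases before the start of transcription, 5′ to 3′ on the strand of the gene, from RefSeq on GRCm38.p6. For Mcm5 and Mcm6 a stretch just after this start was not found in the annotated transcripts of the gene. The starts of these genes are therefore less certain. Capitals mark exact matches on either strand to 3 motifs. One is the E2F site, searched as TTCCCGC, as TTCGCGC, as TTGCCGC and as TTGGCGC, where matches that overlap count as 1 stretch. Another is the cell cycle homology region, CHR, searched as TTTGAA and also as TTCGAA. The last is the CCAAT box, searched by those letters.
Mcm2 (chr6:88898781-88899030, - strand): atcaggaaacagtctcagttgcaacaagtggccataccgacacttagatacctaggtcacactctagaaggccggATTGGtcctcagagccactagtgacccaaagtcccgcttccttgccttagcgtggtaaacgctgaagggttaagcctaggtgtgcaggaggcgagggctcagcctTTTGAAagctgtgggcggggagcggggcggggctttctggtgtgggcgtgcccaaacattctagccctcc
Mcm3 (chr1:20820313-20820562, - strand): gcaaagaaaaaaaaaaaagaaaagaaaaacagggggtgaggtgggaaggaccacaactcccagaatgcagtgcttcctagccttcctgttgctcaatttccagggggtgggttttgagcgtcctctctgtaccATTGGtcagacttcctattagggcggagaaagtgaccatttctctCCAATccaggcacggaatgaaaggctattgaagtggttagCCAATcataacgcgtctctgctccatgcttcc
Mcm5 (chr8:75109259-75109508, + strand): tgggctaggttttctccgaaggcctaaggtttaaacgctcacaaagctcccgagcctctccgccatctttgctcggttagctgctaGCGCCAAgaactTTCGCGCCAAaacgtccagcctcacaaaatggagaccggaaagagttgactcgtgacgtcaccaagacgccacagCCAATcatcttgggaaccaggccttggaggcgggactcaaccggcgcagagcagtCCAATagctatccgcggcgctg
Mcm6 (chr1:128359706-128359955, - strand): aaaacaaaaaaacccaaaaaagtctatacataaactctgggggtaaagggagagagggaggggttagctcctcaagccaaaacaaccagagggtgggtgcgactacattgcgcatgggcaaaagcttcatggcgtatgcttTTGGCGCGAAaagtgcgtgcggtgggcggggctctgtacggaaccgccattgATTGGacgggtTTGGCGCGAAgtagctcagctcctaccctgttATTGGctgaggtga
Mki67 (chr7:135716380-135716629, - strand): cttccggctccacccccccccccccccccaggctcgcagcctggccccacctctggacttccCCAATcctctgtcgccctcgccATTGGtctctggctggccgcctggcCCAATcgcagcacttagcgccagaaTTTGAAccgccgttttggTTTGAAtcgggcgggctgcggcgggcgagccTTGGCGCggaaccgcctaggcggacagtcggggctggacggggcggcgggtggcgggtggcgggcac
Top2a (chr11:99024190-99024439, - strand): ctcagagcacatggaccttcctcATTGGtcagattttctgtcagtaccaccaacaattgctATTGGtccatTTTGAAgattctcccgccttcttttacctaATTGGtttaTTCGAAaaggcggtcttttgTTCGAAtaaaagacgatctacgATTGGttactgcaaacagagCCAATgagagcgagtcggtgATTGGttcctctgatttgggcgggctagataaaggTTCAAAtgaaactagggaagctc
Of the 36 members, 30 had a promoter entry, and the first entry was used for the members with several. An E2F match stood in 10 of these 30 (33.3%) and in 7.89% of the 32851 mouse promoters of the same length. A CHR match stood in 8 of 30 (26.7%) against 17.1%, and a CCAAT box in 21 of 30 (70.0%) against 33.8%. Mcm5 and Mcm6 each held 2 stretches of E2F matches. In Mcm6 both stretches were a match on each strand that overlapped. Top2a held 4 CHR matches and 6 CCAAT boxes, and Mki67 held 1 E2F match, 2 CHR matches and 3 CCAAT boxes. Mcm3 held 3 CCAAT boxes with neither of the other motifs. A match is a description of letters and not a bound site.

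Members with a mean of at least 4 were tested in each comparison, 26 of the 36 in fasted against fed WT livers, 27 in fed Bcl6LKO, 25 in fasted PparaKO and 27 in fasted DKO livers. The members below a mean of 4 numbered 10, 9, 11 and 9, and were for the most part mitotic genes. Members that pass such a filter can pass it through the group in which they are high, so the counts of calls below describe the tested members only. The map of differences shows that Ccnd1, Ccnd3, Cdkn1a, Tk1 and Mki67 held the largest values.

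**Figure D1:**
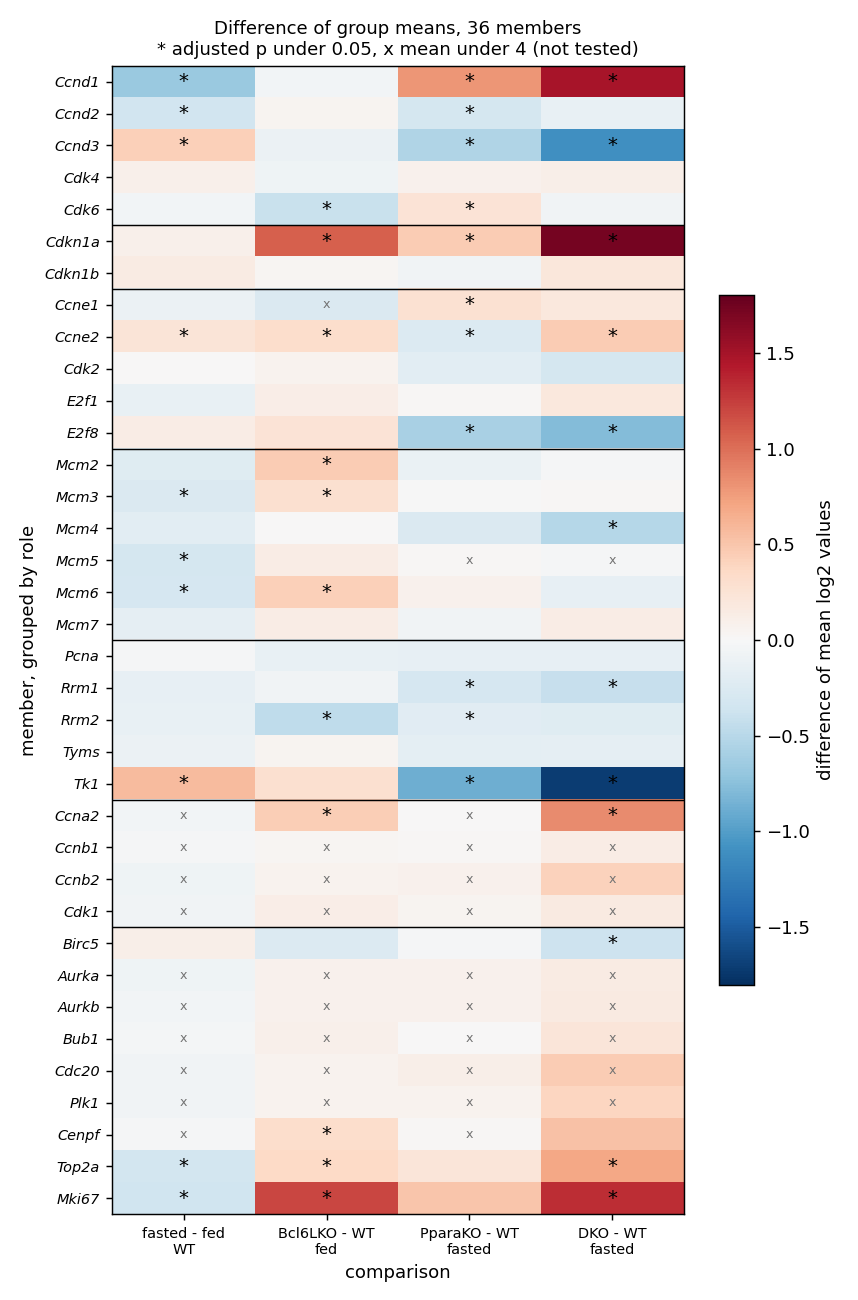
Differences of mean log2 values (colour scale) for 36 members (rows, grouped by role) in 4 comparisons (columns). They are fasted minus fed in WT livers in the first column and knockout minus WT in the others. Asterisks mark an adjusted p under 0.05 and crosses mark members with a mean under 4, which were not tested. Ccnd1 runs from -0.67 with fasting to 1.48 in DKO livers, and Tk1 from 0.57 to -1.70.

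Fasting was compared with feeding in WT livers to see how the cycle genes stand after a night without food. Fasted livers had less cyclin D1 and D2 transcript, less of 3 MCM subunits, Mki67 and Top2a, and more cyclin D3, Ccne2 and Tk1. Of all 11910 genes tested, 11.9% were called higher and 11% lower. The 3 of 26 members called higher make up 11.5% and the 7 called lower 26.9%. No member was called with a fold over 2, while 1.16% of all genes tested were. The median difference of the tested members was -0.12, against 0.00 over all genes.

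Among the D-type cyclins, which answer growth signals, the log2 level of Ccnd1 (GRCm38, chr7:144929931-144939925) in replicates 1 to 4 was 8.34, 7.98, 8.26 and 8.47 in the fed WT group and 7.57, 7.53, 7.63 and 7.64 in fasted WT livers. Every fasted library lay below every fed one, and the difference was -0.67 (SE 0.09, adjusted p = 0.00076), so that fasted livers held 62.9% of the fed level. Ccnd2 was 8.17, 8.08, 8.27 and 8.12 in the fed WT group and 7.91, 7.75, 7.85 and 7.73 in fasted WT livers, and fell by 0.35 (SE 0.06, adjusted p = 0.00267) without overlap. Ccnd3 went the other way. At chr17:47505051-47599691, its levels were 8.32, 8.41, 8.49 and 8.37 in the fed WT group and 8.79, 8.79, 8.98 and 8.76 in fasted WT livers, with a difference of 0.44 (SE 0.06, adjusted p = 0.00076). Fasted replicate 3 stood above the other fasted libraries, and all 4 fasted libraries were above the fed ones. The partner kinases Cdk4 and Cdk6 differed by 0.09 and -0.05 and were not called.

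The CDK inhibitors did not pass the test. Cdkn1a (chr17:29090976-29100727), which encodes p21, was 4.97, 4.68, 4.78 and 4.64 in the fed WT group and 4.88, 4.89, 4.69 and 4.97 in fasted WT livers. The groups overlapped, with a difference of 0.09 (SE 0.08, adjusted p = 0.468) and a 95% interval of -0.09 to 0.27. Cdkn1b, which encodes p27, differed by 0.15.

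At the entry to DNA synthesis, Ccne2 was 4.31, 4.34, 4.36 and 4.36 in the fed WT group and 4.54, 4.46, 4.67 and 4.61 in fasted WT livers. The groups were apart, and the rise was small at 0.23 (SE 0.05, adjusted p = 0.0115). With libraries set to equal totals the rise of Ccne2 shrank to 0.14 and was no longer called (adjusted p = 0.0689). Ccne1, Cdk2, E2f1 and E2f8 had differences from -0.14 to 0.14, none of them called.

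All 6 subunits of the MCM helicase had a negative difference, from -0.32 to -0.16, and 3 of them passed the test. Mcm5 was 4.86, 4.79, 4.75 and 4.74 in the fed WT group and 4.39, 4.49, 4.52 and 4.45 in fasted WT livers, and the difference was -0.32 (SE 0.05, adjusted p = 0.00136). Mcm6 was 6.27, 6.15, 6.39 and 6.22 in the fed WT group and 6.09, 6.0, 5.87 and 5.88 in fasted WT livers, and the difference was -0.30 (SE 0.07, adjusted p = 0.0133). Mcm3 was 5.99, 6.05, 5.92 and 6.18 in the fed WT group and 5.72, 5.85, 5.81 and 5.69 in fasted WT livers, and the difference was -0.27 (SE 0.07, adjusted p = 0.0183). In each of the 3 the highest fasted library stayed under the lowest fed one. Mcm2 differed by -0.22, with an adjusted p of 0.14, or 0.0467 in the fit that pairs libraries of the same number. Of the promoters of these 3 subunits printed above, those of Mcm5 and Mcm6 hold E2F stretches and that of Mcm3 holds none.

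Among the enzymes that supply nucleotides, Tk1 (chr11:117815526-117826092) alone was called. It encodes thymidine kinase 1, which salvages thymidine, and was 7.48, 7.86, 7.77 and 7.48 in the fed WT group and 8.25, 8.44, 7.85 and 8.33 in fasted WT livers. Fasted replicate 3 overlapped the fed range, and the difference was 0.57 (SE 0.13, adjusted p = 0.0113). Rrm1, a subunit of ribonucleotide reductase, was 7.07, 7.08, 7.17 and 7.13 in the fed WT group and 6.94, 6.79, 7.05 and 7.06 in fasted WT livers. These groups were apart by a narrow margin, and the difference of -0.15 was not called. Pcna, Rrm2 and Tyms differed by -0.13 to -0.02.

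Of the mitotic members only Birc5, Top2a and Mki67 reached the mean needed for a test. Mki67 (chr7:135689784-135716361), which encodes the Ki-67 protein of dividing cells, was 6.26, 6.22, 6.38 and 6.13 in the fed WT group and 5.87, 6.01, 5.81 and 5.83 in fasted WT livers. All fasted libraries were below all fed ones, and the difference was -0.36 (SE 0.07, adjusted p = 0.0042). Top2a, which encodes the topoisomerase that untangles sister chromatids, was 4.98, 4.85, 5.05 and 4.84 in the fed WT group and 4.64, 4.69, 4.51 and 4.53 in fasted WT livers. The groups were again apart, at -0.33 (SE 0.06, adjusted p = 0.00484). Birc5, which encodes survivin, was 4.53, 4.96, 4.73 and 4.52 in the fed WT group and 4.8, 4.84, 4.72 and 4.77 in fasted WT livers, with overlap and no call. The 10 untested mitotic genes had differences from -0.08 to -0.02 on this scale. Ccnb1 was at 0.29 to 0.35 in every library.

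**Figure D2:**
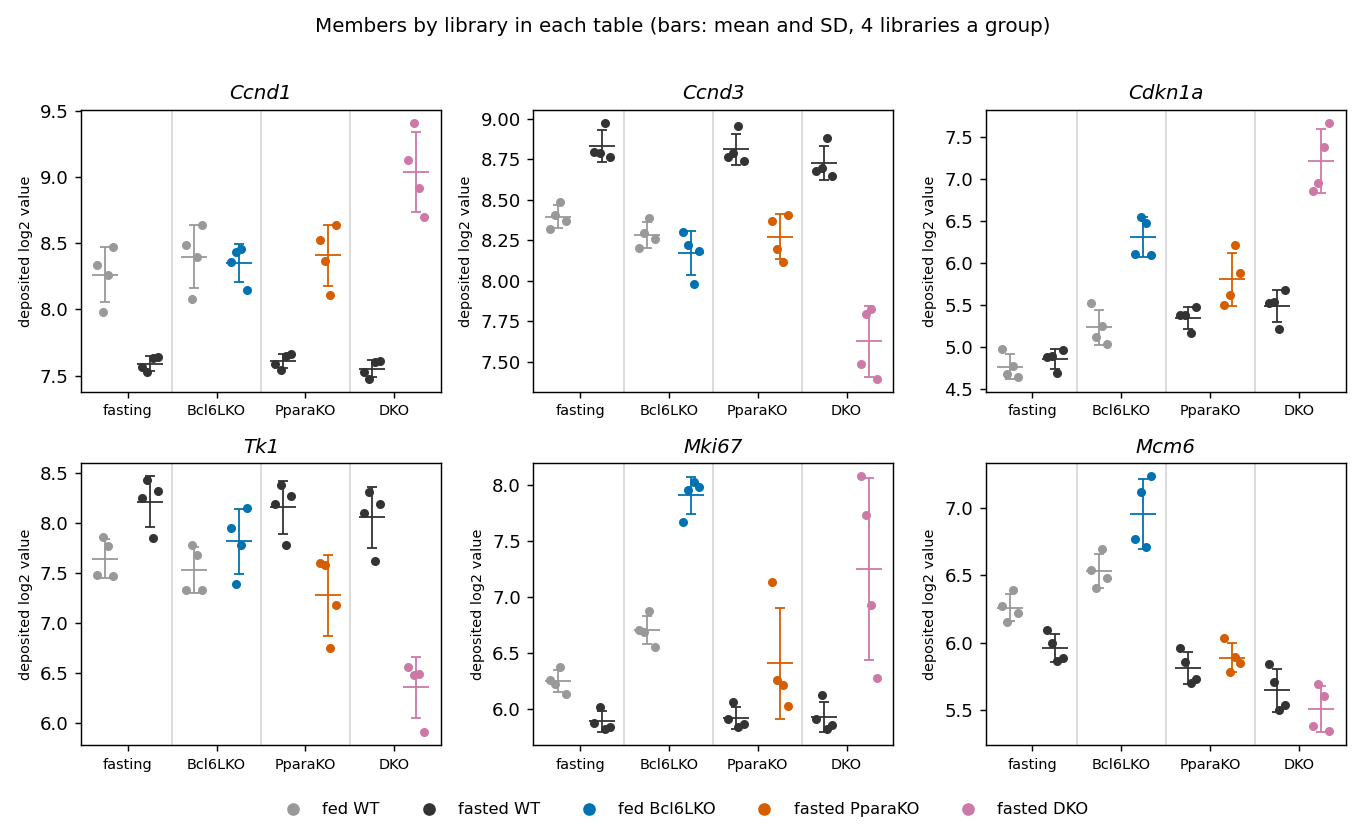
Deposited log2 values (vertical axis) of 6 members in the 8 libraries of each table (horizontal axis: table), with points for libraries and bars for mean and SD of 4 libraries. For Ccnd1 the fasted WT libraries lie at 7.48 to 7.66, and in the PparaKO and DKO tables they are below all knockout libraries of the same table, and the DKO libraries of Mki67 spread from 6.27 to 8.08.

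Other genes of these pathways were looked at by list, beside 11.9% of all genes tested called higher and 11% called lower. Of the origin licensing and replication fork genes, 2 and 5 of 38 tested were called higher and lower (median -0.11), led by the polymerase and primase subunits Pola1 (-0.31) and Prim2 (-0.24) and the clamp loader subunit Rfc5 (-0.28) on the lower side and by Ung (0.29) on the higher. Of the mitosis and cytokinesis genes 1 and 5 of 21 were called (median -0.10), with the condensin subunit Smc2 at -0.32, the centromere histone Cenpa at -0.25 and the checkpoint gene Bub3 at -0.23. Among E2F, RB and DREAM regulators 2 and 2 of 20 were called (median -0.04), with Rbbp4 at -0.40, E2f6 at -0.30, Tfdp2 at 0.24 and Rbl2 at 0.18. Among other CDK inhibitors, cyclins and CDKs 5 and 1 of 29 were called (median 0.04). The largest of these was Wee1, the kinase that holds CDK1 inactive (0.96, adjusted p = 0.000725), followed by Cdk18 (0.34) and Ccni (0.27), while Mnat1 was lower (-0.23). Of the p53 targets 3 and 2 of 22 were called (median 0.05), with Ei24 at 0.54, Sesn2 at 0.49, Gadd45b at 0.42 and Aen at -0.20. The list of p53 targets also holds Trp53 itself and genes of the Gadd45 family, and p53 activity was not tested in any comparison.

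Bulk RNA cannot tell fewer cells of a type from less RNA per cell. The marker counts stand beside 11.9% of all genes tested called higher and 11% called lower. Of 9 tested erythroid markers 8 were called higher and 1 lower in fasted livers, with summed back-transformed levels of 5353 to 7862 in fed WT and 11913 to 15127 in fasted livers, and 5 of 13 stellate cell and fibroblast markers were lower (7662 to 9798 in fed WT and 7524 to 8875 in fasted livers). The summed Kupffer cell markers were 7533 to 9484 in fed WT and 6662 to 8493 in fasted livers and the summed lymphocyte markers 769 to 1094 in fed WT and 772 to 1077. No marker with a row was at 0 in all libraries, and their part in the result was not tested. With libraries set to equal totals the median of all genes moved from 0.00 to -0.09, and 14 members were called lower in place of 7.

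Fed Bcl6LKO livers were compared with fed WT livers to see what loss of BCL6 in hepatocytes does while food is present. They had 2.11-fold the Cdkn1a and 2.31-fold the Mki67 transcript of WT livers, smaller rises in Mcm2, Mcm3, Mcm6, Ccna2, Ccne2, Cenpf and Top2a, and less Cdk6 and Rrm2. Of all 12115 genes tested, 18.3% were called higher and 19.8% lower, against 9 of 27 members higher (33.3%) and 2 lower (7.41%). Of all genes tested 4.23% were called with a fold over 2, against 2 of the 27 members. The median of the tested members was 0.13, against -0.01 over all genes. These counts rest on the scaling. In this table the summed hepatocyte markers were 1069610 to 1404820 in WT and 2799220 to 3023720 in Bcl6LKO livers, while 3 of the 10 markers were called higher and 2 lower, with a median difference of 0.04. With libraries set to equal totals the median of all genes was -0.22, 976 genes were called higher and 6892 lower, and 2 members were higher and 9 lower. Of the 11 called members, Cdkn1a (0.86), Mki67 (0.99), Cdk6 and Rrm2 kept their calls in that setting, and the other 7 kept a positive difference of 0.07 to 0.25 and were not called.

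The D-type cyclins did not pass the test. Ccnd1 was 8.48, 8.08, 8.4 and 8.63 in the fed WT group and 8.36, 8.43, 8.46 and 8.14 in Bcl6LKO livers. The groups overlapped, with a difference of -0.05 (SE 0.11, adjusted p = 0.758) and a 95% interval of -0.30 to 0.20. Ccnd2 was 8.26, 8.15, 8.37 and 8.19 in the fed WT group and 8.08, 8.51, 8.29 and 8.29 in Bcl6LKO livers, a difference of 0.05 within overlapping groups. Cdk6 was 10.17, 10.11, 10.24 and 10.15 in the fed WT group and 9.86, 9.82, 9.6 and 9.77 in Bcl6LKO livers. It was lower in all 4 Bcl6LKO libraries than in any WT library, by 0.41 on average (-0.41 (SE 0.06, adjusted p = 0.000439)).

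Cdkn1a, whose protein p21 blocks CDK2 complexes and is a classical p53 target, was 5.52, 5.12, 5.25 and 5.04 in the fed WT group and 6.11, 6.55, 6.48 and 6.1 in Bcl6LKO livers. The lowest Bcl6LKO library was above the highest WT library, and the difference of 1.07 (SE 0.13, adjusted p = 0.00011) is a fold of 2.11. Without Bcl6LKO replicate 2 the difference was 0.99. Cdkn1b differed by 0.04.

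Ccne2 was 4.22, 4.26, 4.29 and 4.3 in the fed WT group and 4.58, 4.56, 4.54 and 4.63 in Bcl6LKO livers. The groups were narrow and apart, with a difference of 0.31 (SE 0.06, adjusted p = 0.00217). Ccne1 had a mean under 4 and was 4.0, 4.3, 4.07 and 4.05 in the fed WT group and 3.74, 3.91, 3.85 and 3.88 in Bcl6LKO livers. It was lower in every Bcl6LKO library, with a difference of -0.26 that had an adjusted p of 0.0341 when all genes were tested without a filter. E2f8, an atypical E2F that represses its targets, was 5.96, 5.56, 5.82 and 6.01 in the fed WT group and 5.98, 6.11, 6.25 and 5.99 in Bcl6LKO livers, with overlap and no call.

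Among the MCM subunits Mcm2, Mcm3 and Mcm6 were called higher, and the range over the 6 was 0.01 to 0.46. Mcm2 was 5.81, 5.86, 6.08 and 5.77 in the fed WT group and 6.01, 6.42, 6.39 and 6.55 in Bcl6LKO livers, with Bcl6LKO replicate 1 inside the WT range and a difference of 0.46 (SE 0.12, adjusted p = 0.00963). Mcm6 was 6.54, 6.4, 6.7 and 6.48 in the fed WT group and 6.77, 7.12, 6.71 and 7.24 in Bcl6LKO livers. Bcl6LKO replicates 2 and 4 stood above the other pair, and all 4 were above WT at 0.43 (SE 0.12, adjusted p = 0.0178). Mcm3 was 6.22, 6.3, 6.13 and 6.47 in the fed WT group and 6.39, 6.6, 6.56 and 6.74 in Bcl6LKO livers, with a difference of 0.29 (SE 0.09, adjusted p = 0.0324). The Mcm3 call was lost when any one of 6 libraries was left out (adjusted p from 0.055 to 0.0906), and that of Mcm6 without Bcl6LKO replicate 2 (adjusted p = 0.0532).

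Rrm2, the regulated subunit of ribonucleotide reductase, was 5.93, 5.81, 6.0 and 6.29 in the fed WT group and 5.46, 5.68, 5.41 and 5.67 in Bcl6LKO livers. It was lower in all Bcl6LKO libraries, at -0.45 (SE 0.11, adjusted p = 0.00841). Tk1 was 7.33, 7.78, 7.68 and 7.33 in the fed WT group and 7.96, 7.39, 7.78 and 8.15 in Bcl6LKO livers, and the difference of 0.29 was called only without Bcl6LKO replicate 2 (0.43, adjusted p = 0.032). Pcna, Rrm1 and Tyms differed by -0.14, -0.06 and 0.05.

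Mki67 had the largest difference of the set. Its levels were 6.71, 6.68, 6.87 and 6.56 in the fed WT group and 7.67, 7.96, 8.03 and 7.98 in Bcl6LKO livers. The lowest Bcl6LKO library was well above the highest WT library, and the difference of 1.21 (SE 0.09, adjusted p = 3.25e-06) is a fold of 2.31. Ccna2, the cyclin of S phase and G2, was 4.0, 4.02, 4.08 and 3.95 in the fed WT group and 4.59, 4.49, 4.21 and 4.54 in Bcl6LKO livers. All Bcl6LKO libraries were above WT, with replicate 3 the closest, at 0.44 (SE 0.09, adjusted p = 0.00273). Top2a was 5.53, 5.38, 5.63 and 5.34 in the fed WT group and 5.59, 6.05, 5.62 and 6.05 in Bcl6LKO livers. Replicates 2 and 4 were the high ones, as for Mcm6, and the difference of 0.36 (SE 0.12, adjusted p = 0.0429) missed the threshold with no filter on the mean (adjusted p = 0.0546) and when any one of 5 libraries was left out (adjusted p from 0.0575 to 0.117). Cenpf, a kinetochore protein of late cycle, was 4.14, 4.23, 4.15 and 4.04 in the fed WT group and 4.5, 4.5, 4.23 and 4.61 in Bcl6LKO livers, with a difference of 0.32 (SE 0.09, adjusted p = 0.0167). Bcl6LKO replicate 3 lay at the top of the WT range, and without replicate 4 the adjusted p was 0.0501. Birc5 differed by -0.24 and was not called. The 8 other mitotic and G2 members, all under a mean of 4, had differences of 0.04 to 0.12.

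The wider lists stand beside 18.3% of all genes tested called higher and 19.8% called lower in this table. Of the origin and fork genes 5 were called higher and 3 lower of 37, under both shares (median 0.01). The largest of all was Mcm10, which acts when origins fire and was lower (-1.96, adjusted p = 8.7e-08), with Orc4 at -0.34 and Pold2 at -0.31. Lig1, the ligase that joins Okazaki fragments (0.60, adjusted p = 0.000221), Cdt1, which loads the MCM ring (0.49), and Prim1 (0.28) were higher. Of the mitosis and cytokinesis genes 1 and 3 of 23 were called (median 0.00), also under both shares. The lower ones were Spc24 (-0.64), Cks1b (-0.35) and Pttg1 (-0.27). Among E2F, RB and DREAM regulators 2 and 6 of 20 were called (median -0.07), with E2f2 at 0.58 and Rbbp4 at -0.64, Lin52 at -0.31 and Skp2 at -0.27. Of other inhibitors, cyclins and CDKs 4 and 8 of 29 were called (median -0.03), with Cables1 (1.08) and the inhibitors Cdkn1c, encoding p57 (0.63), and Cdkn2c, encoding p18 (0.36), higher and Ccnt1 (-0.27), Cdk18 (-0.27) and Ccni (-0.22) lower. Of the p53 targets 6 and 0 of 23 were called (median 0.04), led by Eda2r (1.74, adjusted p = 3e-05), Plk2 (1.69, adjusted p = 1.23e-06) and Gadd45b (1.08, adjusted p = 2.08e-05).

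Markers of other cells were also called in this table, where 18.3% of all genes tested were called higher and 19.8% lower. Of 13 sinusoidal endothelial markers 8 were higher (9807 to 10788 in WT and 11316 to 13023 in Bcl6LKO livers), of 13 stellate cell and fibroblast markers 4 were higher (7793 to 10288 in WT and 10080 to 12575), and of 3 tested lymphocyte markers 2 were higher (779 to 1151 in WT and 1069 to 1701). Of 13 Kupffer cell markers 1 was higher (7577 to 9797 in WT and 7982 to 10817), a smaller share than over all genes. No marker with a row was at 0 in all libraries, and their part in the result was not tested.

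Fasted PparaKO livers were compared with fasted WT livers to see which fasting levels differ without PPARα. PparaKO livers had more Ccnd1, Cdkn1a, Ccne1 and Cdk6 and less Tk1, E2f8, Ccnd3, Ccnd2, Rrm1, Ccne2 and Rrm2. Of all 11932 genes tested, 11.7% were called higher and 13.3% lower, against 4 of 25 members higher (16%) and 7 lower (28%). Of all genes tested 1.58% were called with a fold over 2, and no member was. The median of the tested members was -0.06, against 0.01 over all genes. The lower count dropped to 4 when WT replicate 3, WT replicate 4 or PparaKO replicate 4 was left out.

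Ccnd1 was 7.59, 7.55, 7.65 and 7.66 in the fasted WT group and 8.52, 8.36, 8.11 and 8.64 in PparaKO livers. All PparaKO libraries were above all WT libraries, and the difference of 0.80 (SE 0.10, adjusted p = 0.000218) is a fold of 1.74. Ccnd3 was 8.77, 8.79, 8.95 and 8.74 in the fasted WT group and 8.37, 8.2, 8.11 and 8.41 in PparaKO livers. Here the groups were apart downwards, at -0.54 (SE 0.08, adjusted p = 0.000614). Ccnd2 was 7.74, 7.58, 7.67 and 7.56 in the fasted WT group and 7.52, 7.3, 7.13 and 7.36 in PparaKO livers, and fell by 0.31 (SE 0.08, adjusted p = 0.0206), with the call lost without WT replicate 1 (adjusted p = 0.0553) or PparaKO replicate 3 (adjusted p = 0.0583). Cdk6 was 10.07, 10.28, 10.2 and 10.14 in the fasted WT group and 10.53, 10.37, 10.38 and 10.43 in PparaKO livers, and the rise of 0.25 (SE 0.06, adjusted p = 0.0139) was small beside that of its partner Ccnd1.

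Cdkn1a was 5.38, 5.38, 5.17 and 5.47 in the fasted WT group and 5.5, 5.62, 6.22 and 5.88 in PparaKO livers. PparaKO replicate 3 was the highest library and replicate 1 lay just above the WT range. The difference was 0.45 (SE 0.14, adjusted p = 0.0316), and leaving out any one of 5 libraries took the adjusted p to between 0.0568 and 0.0834. Ccne1 was 4.38, 4.27, 4.38 and 4.36 in the fasted WT group and 4.73, 4.66, 4.48 and 4.59 in PparaKO livers, with a difference of 0.27 (SE 0.07, adjusted p = 0.012) and no overlap. Ccne2 went the other way. It was 4.57, 4.49, 4.72 and 4.65 in the fasted WT group and 4.38, 4.34, 4.46 and 4.28 in PparaKO livers, a difference of -0.24 (SE 0.07, adjusted p = 0.0237), and without WT replicate 3, WT replicate 4 or PparaKO replicate 4 its adjusted p rose to between 0.0581 and 0.0717. E2f8 was 6.04, 5.62, 5.65 and 5.4 in the fasted WT group and 5.26, 5.07, 5.17 and 4.86 in PparaKO livers. WT replicate 1 was the highest library, no PparaKO library reached the WT range, and the difference was -0.59 (SE 0.13, adjusted p = 0.00627).

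No MCM subunit passed the test in this table, with differences from -0.27 to 0.08. Mcm4 had the lowest difference, with levels of 5.63, 5.76, 5.89 and 5.88 in the fasted WT group and 5.54, 5.32, 5.77 and 5.46 in PparaKO livers. Its groups overlapped, and it was called only without WT replicate 1 (-0.32, adjusted p = 0.0484) or without PparaKO replicate 3 (-0.35, adjusted p = 0.0215). Mcm6, the highest, was 5.96, 5.85, 5.7 and 5.73 in the fasted WT group and 6.03, 5.78, 5.9 and 5.85 in PparaKO livers, with overlap.

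The nucleotide supply genes had negative differences throughout, from -0.88 to -0.15, and 3 of 5 were called. Tk1 was 8.2, 8.39, 7.78 and 8.27 in the fasted WT group and 7.6, 7.58, 6.75 and 7.18 in PparaKO livers. The highest PparaKO library was under the lowest WT library, and PparaKO livers held 54.3% of the WT level (difference -0.88 (SE 0.18, adjusted p = 0.00537)). Rrm1 was 6.78, 6.61, 6.88 and 6.9 in the fasted WT group and 6.55, 6.54, 6.51 and 6.36 in PparaKO livers, at -0.30 (SE 0.08, adjusted p = 0.0182), and was lost as a call without WT replicate 3, WT replicate 4 or PparaKO replicate 4 (adjusted p from 0.0503 to 0.0546). Rrm2 was 5.67, 5.84, 5.76 and 5.84 in the fasted WT group and 5.63, 5.62, 5.49 and 5.56 in PparaKO livers, a narrow gap with a difference of -0.20 (SE 0.06, adjusted p = 0.0424). The Rrm2 call was lost with no filter on the mean (adjusted p = 0.0668) and when any one of 5 libraries was left out.

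The mitotic members that could be tested were not called. Mki67 was 5.9, 6.06, 5.83 and 5.86 in the fasted WT group and 7.14, 6.26, 6.21 and 6.02 in PparaKO livers. PparaKO replicate 1 stood far above the other 7 libraries, and the difference of 0.49 had an adjusted p of 0.0849. Top2a was 4.43, 4.48, 4.27 and 4.29 in the fasted WT group and 4.89, 4.48, 4.61 and 4.37 in PparaKO livers, with replicate 1 again the highest and a difference of 0.22. The 10 mitotic and G2 members under a mean of 4 differed by 0.01 to 0.11.

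The list and marker counts in PparaKO livers stand beside 11.7% of all genes tested called higher and 13.3% called lower. Of the origin and fork genes 1 and 5 of 37 were called (median -0.05), with Gins4 at -0.31 and the origin recognition subunits Orc4 at -0.26 and Orc5 at -0.24. Of the mitosis and cytokinesis genes 1 and 1 of 18 were called (median 0.10), namely the kinetochore gene Spc25 lower (-0.80, adjusted p = 0.00138) and Anln higher (0.23). The mean of Spc25 was 4.79 in WT and 3.98 in PparaKO livers, so it passed the filter through the WT group. Among E2F, RB and DREAM regulators 1 and 1 of 20 were called (median -0.02), E2f3 higher (0.19) and Tfdp2 lower (-0.27). Of other inhibitors, cyclins and CDKs 3 and 5 of 29 were called (median 0.04), with Cdk9 (0.24), Cdk17 (0.23) and Cdk20 (0.21) against Ccni (-0.30), Ccny (-0.28) and Cdk19 (-0.22). Of the p53 targets 2 and 3 of 23 were called (median 0.04), with Mdm2, the ligase that degrades p53, at 0.37, Ei24 at -0.50 and the death receptor Fas at -0.36. Of 13 Kupffer cell markers 3 were higher (6751 to 8627 in WT and 7995 to 11164 in PparaKO livers), and summed erythroid markers ran over 12832 to 16218 in WT and 6753 to 18989 in PparaKO livers. No marker with a row was at 0 in all libraries, and their part in the result was not tested.

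Fasted DKO livers were compared with the same fasted WT livers, to see which fasting levels differ when hepatocyte BCL6 and PPARα are both lost. They held 3.31-fold the Cdkn1a and 2.8-fold the Ccnd1 transcript of WT livers, more Mki67, Ccna2, Top2a and Ccne2, and less Tk1, Ccnd3, E2f8, Mcm4, Rrm1 and Birc5. Of all 12004 genes tested, 19.3% were called higher and 20.8% lower, against 6 of 27 members higher (22.2%) and 6 lower (22.2%). Of all genes tested 6.11% were called with a fold over 2. So were 5 of the 27 members, Cdkn1a, Ccnd1 and Mki67 upwards and Tk1 and Ccnd3 downwards. The median of the tested members was -0.02, against 0.00 over all genes. DKO libraries spread more than the others, with an SD from the group mean of up to 0.22 over all genes, against at most 0.15 in the other tables.

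Ccnd1 was 7.53, 7.48, 7.6 and 7.61 in the fasted WT group and 9.13, 9.41, 8.92 and 8.69 in DKO livers. The lowest DKO library was above the highest WT library by more than 1 unit, and the difference of 1.48 (SE 0.13, adjusted p = 1.15e-05) is a fold of 2.8. Ccnd3 was 8.68, 8.7, 8.88 and 8.65 in the fasted WT group and 7.49, 7.8, 7.83 and 7.39 in DKO livers, and DKO livers held 46.7% of the WT level (difference -1.10 (SE 0.11, adjusted p = 2.54e-05)). Ccnd2 was 7.76, 7.57, 7.68 and 7.55 in the fasted WT group and 7.57, 7.83, 7.26 and 7.35 in DKO livers, with overlap and a difference of -0.14. Cdk4 and Cdk6 were not called (0.10 and -0.06).

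Cdkn1a was 5.53, 5.54, 5.21 and 5.67 in the fasted WT group and 6.85, 6.95, 7.38 and 7.67 in DKO livers. DKO replicates 3 and 4 were higher than replicates 1 and 2, all were above WT, and the difference of 1.73 (SE 0.18, adjusted p = 3.07e-05) is a fold of 3.31. Cdkn1b differed by 0.21 and was not called.

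Ccne2 was 5.0, 4.88, 5.23 and 5.13 in the fasted WT group and 5.5, 5.11, 5.68 and 5.78 in DKO livers, with DKO replicate 2 inside the WT range and a difference of 0.46 (SE 0.14, adjusted p = 0.0275). It lost its call with equal totals (0.37, adjusted p = 0.064) and without any one of 4 libraries. E2f8 was 6.21, 5.65, 5.69 and 5.36 in the fasted WT group and 5.08, 4.95, 4.75 and 4.98 in DKO livers. It was lower in each DKO library, at -0.78 (SE 0.16, adjusted p = 0.00321). Cdk2 was 7.21, 7.27, 6.93 and 6.79 in the fasted WT group and 6.76, 6.86, 6.6 and 6.7 in DKO livers, a difference of -0.32 that was not called as reported and was called with equal totals (adjusted p = 0.0192), with median centring (adjusted p = 0.0404) and without WT replicate 4 (adjusted p = 0.0177).

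Of the MCM subunits Mcm4 was called. It was 5.49, 5.67, 5.84 and 5.83 in the fasted WT group and 5.43, 5.16, 5.07 and 5.11 in DKO livers, with all DKO libraries lower and a difference of -0.51 (SE 0.11, adjusted p = 0.00437). The other 5 differed by -0.14 to 0.13, and Mcm5 had a mean under 4. Tk1 was 8.11, 8.32, 7.63 and 8.19 in the fasted WT group and 6.56, 6.48, 6.49 and 5.9 in DKO livers. DKO livers held 30.7% of the WT level, at -1.70 (SE 0.17, adjusted p = 3.23e-05), the largest fall of the set, and without the low DKO replicate 4 the difference was -1.55. Rrm1 was 6.74, 6.53, 6.86 and 6.89 in the fasted WT group and 6.46, 6.46, 6.29 and 6.15 in DKO livers, and the groups were apart at -0.41 (SE 0.11, adjusted p = 0.0114). Pcna, Rrm2 and Tyms differed by -0.22 to -0.15.

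The mitotic genes differed between DKO libraries. Mki67 was 5.91, 6.12, 5.81 and 5.85 in the fasted WT group and 8.08, 7.74, 6.92 and 6.27 in DKO livers. DKO replicates 1 and 2 were far above WT and replicate 4 was just above it, and the difference was 1.33 (SE 0.32, adjusted p = 0.00767). Leaving out one DKO library at a time gave 1.05 to 1.66, and the call held each time. Ccna2 was 3.82, 4.13, 3.69 and 3.81 in the fasted WT group and 4.93, 4.96, 4.66 and 4.27 in DKO livers, with all DKO libraries above WT and a difference of 0.84 (SE 0.16, adjusted p = 0.0019). Its mean was 3.86 in WT and 4.70 in DKO livers, so it passed the filter through the DKO group. When all genes were tested without a filter, Ccna2 had an adjusted p of 0.0024. Top2a was 4.55, 4.63, 4.28 and 4.33 in the fasted WT group and 5.71, 5.56, 4.64 and 4.63 in DKO livers. Replicates 3 and 4 lay just above the WT range, and the difference of 0.69 (SE 0.24, adjusted p = 0.0428) was lost with equal totals (0.60, adjusted p = 0.0644), with median centring and when any WT library or DKO replicate 1 or 2 was left out (adjusted p up to 0.114). Cenpf was 4.1, 4.36, 4.02 and 3.74 in the fasted WT group and 5.0, 5.05, 4.19 and 4.09 in DKO livers. The same pair was high, and the difference of 0.53 was not called (adjusted p = 0.0917).

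The mitotic and G2 members under a mean of 4 had the same 2 libraries on top. Cdc20, which activates the anaphase ligase, was 2.86, 2.64, 2.75 and 2.64 in the fasted WT group and 3.37, 3.58, 3.02 and 2.75 in DKO livers. Its difference of 0.46 had an adjusted p of 0.0487 with no filter. Plk1, the mitotic kinase, was 2.71, 2.63, 2.59 and 2.53 in the fasted WT group and 3.31, 3.25, 2.82 and 2.65 in DKO livers. Ccnb2, a mitotic cyclin, was 3.08, 3.26, 3.07 and 2.96 in the fasted WT group and 3.67, 4.02, 3.3 and 3.06 in DKO livers. In each of these DKO replicates 1 and 2 were the 2 highest of the 8 libraries, and replicate 4 fell within the WT range. The same 2 libraries led for Aurka, Aurkb, Cdk1, Bub1 and Ccnb1 as well. Birc5 ran the other way in its mean. It was 4.64, 4.71, 4.5 and 4.6 in the fasted WT group and 4.55, 4.37, 4.07 and 3.96 in DKO livers, with DKO replicates 3 and 4 lowest and a difference of -0.37 (SE 0.13, adjusted p = 0.0432) that was lost with no filter (adjusted p = 0.0589) and without any one of 6 libraries.

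**Figure D3:**
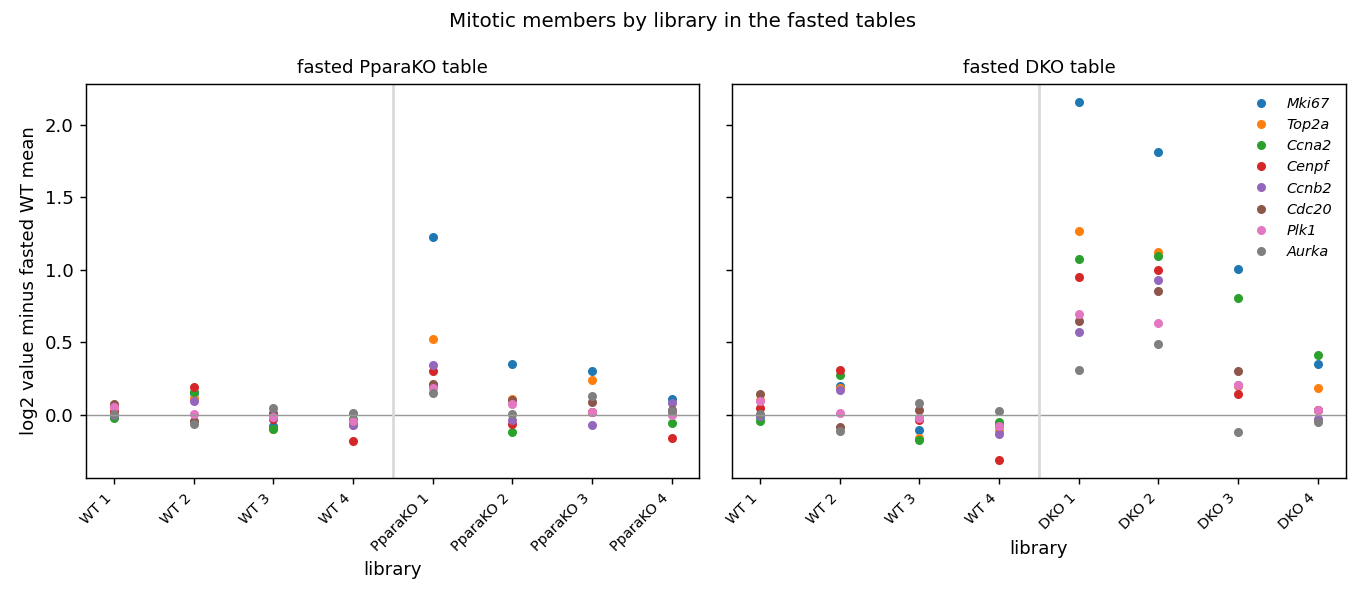
Log2 values of 8 mitotic and G2 members minus the mean of the 4 fasted WT libraries of the same table (vertical axis), for each library (horizontal axis) of the PparaKO table (left) and the DKO table (right). PparaKO replicate 1 is the highest of its group for Mki67 (7.14 against 6.02 to 6.26), and DKO replicates 1 and 2 are the highest for all 8.

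The list counts in DKO livers stand beside 19.3% of all genes tested called higher and 20.8% called lower. Of the origin and fork genes 3 and 8 of 37 were called higher and lower (median -0.13). Mcm10 was the lowest (-1.53, adjusted p = 3.95e-07), with Gins4 at -0.57, and Ung (0.66), Tipin (0.51) and Cdt1 (0.31) were higher. Of the mitosis and cytokinesis genes 3 and 3 of 23 were called (median 0.11). The kinetochore pair Spc25 (-0.98) and Spc24 (-0.86) and the securin gene Pttg1 (-0.55) were lower, and Ect2 (0.52), needed for cytokinesis, was higher. The mean of Ect2 was 3.998 in WT and 4.52 in DKO livers, so it passed the filter through the DKO group. Another of the mitosis genes called higher passed it in the same way. Spc25 had a mean of 4.95 in WT and 3.97 in DKO livers and passed through the WT group. Among E2F, RB and DREAM regulators 2 and 5 of 20 were called (median -0.03), with Tfdp2 at -0.55, Rbbp4 at -0.46 and Rbl2, encoding p130, at -0.43, against Rbl1, encoding p107, at 0.27. Of other inhibitors, cyclins and CDKs 3 and 6 of 29 were called (median -0.05), with Wee1 the lowest (-1.48, adjusted p = 6.17e-06), then Ccni (-0.41) and Cdk19 (-0.34), and Cables1 (0.91), Cdk9 (0.40) and Cdkn2c (0.38) higher. Of the p53 targets 10 and 3 of 23 were called (median 0.40). Gadd45a (1.58, adjusted p = 0.00158), Plk2 (1.51, adjusted p = 0.000125) and Eda2r (1.06, adjusted p = 2.59e-05) rose the most with no overlap between groups, and Btg1 (-0.41) and Fas (-0.32) were lower. Mdm2 was among the higher ones, at 0.40.

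**Figure D4:**
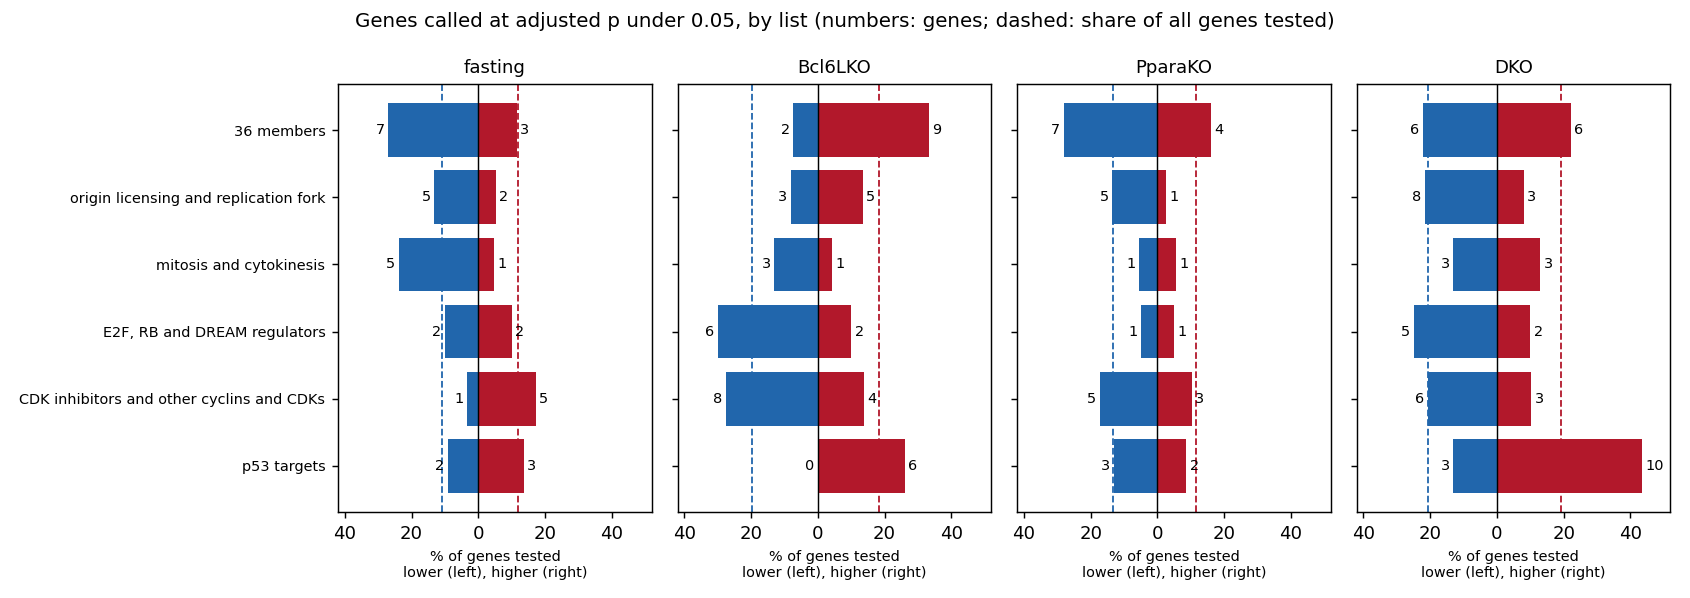
Share of tested genes called higher (right, red) and lower (left, blue) at an adjusted p under 0.05 for the 36 members and 5 pathway lists (rows) in 4 comparisons (panels), with the number of genes at each bar and the share of all genes tested as dashed lines. In DKO livers 10 of 23 tested p53 targets were higher and 3 lower, against 19.3% and 20.8% of all genes.

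The marker counts in DKO livers stand beside 19.3% of all genes tested called higher and 20.8% called lower. Of 10 tested erythroid markers 8 were lower in DKO livers (11924 to 15376 in WT and 6495 to 9071 in DKO livers), all 3 tested neutrophil markers were higher (96.7 to 117 in WT and 127 to 199), and 5 of 13 sinusoidal endothelial and 4 of 13 stellate cell and fibroblast markers were higher. Summed lymphocyte markers were 715 to 1034 in WT and 586 to 965 in DKO livers and summed hepatocyte markers 1407400 to 1616030 in WT and 2258530 to 2637910. Of the 10 hepatocyte markers 4 were called higher and 1 lower, with a median difference of 0.08. No marker with a row was at 0 in all libraries, and their part in the result was not tested. With libraries set to equal totals the median of all genes moved to -0.08.

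The comparisons share control libraries, fed WT for fasting and Bcl6LKO and fasted WT for fasting, PparaKO and DKO, so their values for a member are not independent and are set side by side only. Ccnd1 differed by -0.67 with fasting, -0.05 in Bcl6LKO, 0.80 in PparaKO and 1.48 in DKO livers. For Ccnd3 the 4 differences were 0.44, -0.11, -0.54 and -1.10, and for Tk1 they were 0.57, 0.29, -0.88 and -1.70. Cdkn1a gave 0.09, 1.07, 0.45 and 1.73, and Mki67 gave -0.36, 1.21, 0.49 and 1.33. Ccne2, with 0.23, 0.31, -0.24 and 0.46, was called in all 4 reported fits and was lower in PparaKO livers alone. With equal library totals its call was lost with fasting, in Bcl6LKO livers and in DKO livers. Cdk4, Cdkn1b, Cdk2, E2f1, Mcm7, Pcna and Tyms were called in none of the 4 reported fits, with differences between -0.32 and 0.21. Under equal library totals all of them were called lower, though not in every comparison. These calls were Pcna (-0.35), Cdk4 (-0.29), Cdkn1b (-0.18) and Tyms (-0.17) in Bcl6LKO livers and Cdk2 (-0.41) in DKO livers. With fasting they were Mcm7 (-0.24), E2f1 (-0.23) and Tyms (-0.19). DKO livers were not tested against PparaKO livers. Some members share sequence with other genes. Of all stretches of 75 bases, the read length, in the annotated transcripts of Ccnb1 18.9% also occur in another gene, led by the pseudogene Ccnb1-ps. For Pcna the share was 13.8% and for Mcm7 9.49%, so the values of these 3 are less certain. For each of the other members it was at most 4.4%.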

How the data were processed

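Total RNA of mouse livers was made by the study into ribosome-depleted, stranded libraries and read as single ends of 75 bases. The authors aligned the reads with STAR to mm10, used HOMER to count over exons, and compared each pair of groups with DESeq2. The strand setting of the counting is not given in the sources used here. The deposited tables hold values per library on a log2 scale, as a regularised logarithm gives, with 8 libraries in each of 4 tables. They also hold the authors' log2 fold changes and p-values, which were not used. The values are not counts, so depth is unknown and no counting interval is given.

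Groups came from the sample labels. Within each table, genes at 0 in all 8 libraries or with a mean under 4 were left out, and differences were tested by limma (version 3.58.1, R 4.3.3; trend in the prior, Benjamini-Hochberg adjustment over all genes tested). A gene was called at an adjusted p under 0.05. The fit was tested on simulated data. The members and lists were chosen with earlier results of these data known. The text names all 36 members, gives library values for called members and for Ccnd1 and Cdkn1a, and names from each list up to 3 genes a direction with the largest differences among called genes whose groups do not overlap. One gene of the lists is counted and not reported here by name. In the fasting table, deviations of libraries with the same number correlated (0.257, 0.133, 0.207 and 0.15 over 11910 genes), so the numbers may pair the samples there. The reported fits have no term for the number, and the replicate block listed below adds one. The labels do not say what the number marks. Alternatives were no filter, a pseudocount of 8, equal library totals, median centring, a replicate block and leaving out each library. Sequences came from RefSeq, gene coordinates and transcripts from GENCODE on GRCm38.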

Additional observations from a re-analysis of the deposited data

Results flagged for a closer look

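Within groups of 4, the library farthest from the rest was examined for each called member and for Ccnd1 and Cdkn1a, in 92 groups. In 3 of them the gap to the nearest library, divided by the range of the group, passed Dixon's 95% critical value. Chance flags about 1 in 20 groups, so 3 of 92 is no more than chance gives. Ccnd3 in fasted WT replicate 3 was 8.98 in the fasting table, against 8.76 to 8.79 in the other 3 libraries (ratio 0.861). Ccne1 in fasted WT replicate 2 was 4.27 in the PparaKO table, against 4.36 to 4.38 (ratio 0.849). Tk1 in DKO replicate 4 was 5.90, against 6.48 to 6.56 (ratio 0.883), and the fall of Tk1 was -1.70 with this library and -1.55 without it.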

How the results depend on the processing

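Of 13 alternatives per comparison, equal library totals changed the most member calls with fasting and in Bcl6LKO livers, and changed none in PparaKO livers. With equal library totals the number of members called lower with fasting went from 7 to 14, the members called in Bcl6LKO livers went from 9 higher and 2 lower to 2 higher and 9 lower, and the 2 Bcl6LKO members over a fold of 2 became 0 (1 with the pseudocount of 8 and 1 without Bcl6LKO replicate 2). Over all genes, equal totals gave 810 higher and 3293 lower with fasting in place of 1416 and 1309, 976 and 6892 in Bcl6LKO in place of 2212 and 2394, and 1590 and 3416 in DKO livers in place of 2314 and 2494. The share of higher calls moved from 52% to 19.7%, from 48% to 12.4% and from 48.1% to 31.8%. Leaving out 1 library gave 3 members higher and 7 to 8 lower with fasting, 6 to 9 higher and 2 lower in Bcl6LKO, 3 to 4 higher and 4 to 7 lower in PparaKO, and 4 to 6 higher and 5 to 7 lower in DKO livers. The 2 changes of sign were those of Ccnd1 in Bcl6LKO livers, an uncalled difference of -0.05 that ran from -0.16 (without fed WT replicate 2) to 0.029 (without fed WT replicate 4) and was 0.018 without Bcl6LKO replicate 4. With the replicate block the members called were 3 and 8 with fasting, 8 and 2 in Bcl6LKO, 4 and 6 in PparaKO and 7 and 7 in DKO livers. The block ended the calls of Top2a in Bcl6LKO (adjusted p = 0.0835) and Rrm2 in PparaKO livers (adjusted p = 0.0748), and added Cenpf (adjusted p = 0.0227) and Cdk2 (adjusted p = 0.0335) in DKO livers. Outside the fasting table the libraries of a number did not deviate together (correlations from -0.133 to 0.099). Of 46 single values, 36 kept direction and call with equal totals, 42 with no filter, 45 with median centring, 46 with the pseudocount and 44 with the block. The cause of these changes was not tested. Depth is unknown, and the deposited scale draws low genes together, so small differences of the mitotic members could be missed.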
